A study of Mus musculus with 4 samples.

Results

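Genes of leukocyte homing were followed across the 4 libraries of the series. Of the 19308 genes listed for every library, 9 were taken by symbol: 4 that encode leukocyte integrin chains (Itgb7, Itga4, Itgae and Itgal) and 5 that encode ligands on vessel walls (Madcam1, Vcam1, Icam1, Sele and Selp). Their identifiers were read from the file of wild-type (WT) replicate 1 and looked up in the other files. All 9 passed the filter on low counts. The series measured RNA of colonic mucosa by RNA sequencing in C57BL/6 WT mice and in mice lacking Itch, the gene of an E3 ubiquitin ligase. Each group held 2 libraries. All 4 samples carry the label of inflammation, while the extraction protocol calls only the mucosa of the knockout (KO) mice inflamed. The sources used here do not give age, sex, the Itch allele, any treatment or pooling. Whether the 2 libraries of a group are separate mice is not labelled either, and p-values below therefore cover the spread between libraries, which may be technical.

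Leukocytes leave the blood in steps. Selectins on activated endothelium, E-selectin (Sele) and P-selectin (Selp), catch rolling cells by their sugar-bearing ligands, and integrins then bind immunoglobulin-like ligands on the vessel wall and hold the cells. The integrin of alpha 4 (Itga4) and beta 7 (Itgb7) chains binds MAdCAM-1, the addressin of gut venules and Peyer's patches, and is the main gut-homing receptor. The alpha 4 chain also pairs with beta 1 (Itgb1) to bind VCAM-1. LFA-1, made of the alpha L (Itgal) and beta 2 (Itgb2) chains, binds ICAM-1. The alpha E chain (Itgae), the other partner of beta 7, holds lymphocytes within the epithelium by binding E-cadherin.

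Promoter windows of 300 bases, running from 250 bases before to 50 bases from the transcription start onward, were taken from RefSeq (GRCm38.p6) and matched 6 of the 9 genes, and Itgae, Itgal and Vcam1 were not matched. The windows of Madcam1, Icam1 and Sele are shown because they hold the NF-kB and TATA box matches among the vessel ligands. Capitals mark matches to the NF-kB consensus, searched on both strands, or to the TATA box letters TATAAA, searched on the strand shown. Each is given 5′ to 3′ on the plus strand, at chr10:79664309-79664608 for Madcam1, chr9:21015690-21015989 for Icam1 and chr1:164047984-164048283 for Sele.
Madcam1: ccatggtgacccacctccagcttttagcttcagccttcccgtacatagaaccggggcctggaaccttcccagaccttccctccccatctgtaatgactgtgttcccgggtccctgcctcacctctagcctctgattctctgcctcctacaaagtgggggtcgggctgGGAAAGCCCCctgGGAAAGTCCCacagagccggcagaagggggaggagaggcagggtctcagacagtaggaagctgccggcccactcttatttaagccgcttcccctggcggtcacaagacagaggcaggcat
Icam1: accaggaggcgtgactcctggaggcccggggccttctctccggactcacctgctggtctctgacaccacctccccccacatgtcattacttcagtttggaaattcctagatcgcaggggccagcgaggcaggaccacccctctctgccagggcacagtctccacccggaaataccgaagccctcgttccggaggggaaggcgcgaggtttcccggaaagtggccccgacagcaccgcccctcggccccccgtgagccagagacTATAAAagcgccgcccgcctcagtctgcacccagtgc
Sele: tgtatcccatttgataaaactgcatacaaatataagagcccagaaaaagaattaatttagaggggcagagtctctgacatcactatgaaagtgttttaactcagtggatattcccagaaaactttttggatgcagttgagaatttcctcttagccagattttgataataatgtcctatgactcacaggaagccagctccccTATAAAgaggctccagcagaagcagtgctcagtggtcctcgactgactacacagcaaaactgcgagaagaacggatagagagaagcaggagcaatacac
Madcam1 was the 1 gene of the 6 with matches to the NF-kB consensus. Only exact matches were counted, so a window without a match may still hold a site that departs from the consensus. Its 2 matches, GGAAAGCCCC and GGAAAGTCCC, lay 83 to 74 and 70 to 61 bases upstream of the start, with 3 bases between them. Of 32851 promoter windows of this length, 8.46% held at least 1 such match. TATAAA was found in 2 of the 6 windows, those of Icam1 and Sele, and in 8.32% of all windows. In Sele it lay upstream of the start. In Icam1 it lay after the RefSeq start but before the gene start of the GENCODE annotation at 21015985, so its place relative to transcription depends on the annotation. The RUNX letters TGTGGT, searched on both strands, were found in the Itga4 window alone and in 16.8% of all windows. A match of letters is a description and does not show a site that is bound.

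Facts about the libraries bear on the values below. Total counts over the shared genes ran from 8181193 to 12199709. Levels are in CPM, counts scaled to a common library size with normalization factors. Itch measured 204 and 183 CPM in the WT libraries against 11.9 and 13.4 CPM in the KO libraries. Colon epithelial markers were present in all libraries, at summed levels of 1908 and 1523 CPM in WT and 1911 and 1450 CPM in KO. WT replicate 1 also held squamous epithelium RNA, with 9 markers summing to 831 CPM against 14.8 in WT replicate 2 and 28.4 and 35.3 in KO, and WT replicate 2 held small intestine RNA, with 8 markers summing to 420 CPM against 84.8 in WT replicate 1 and 114 and 119 in KO.

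**Figure D1:**
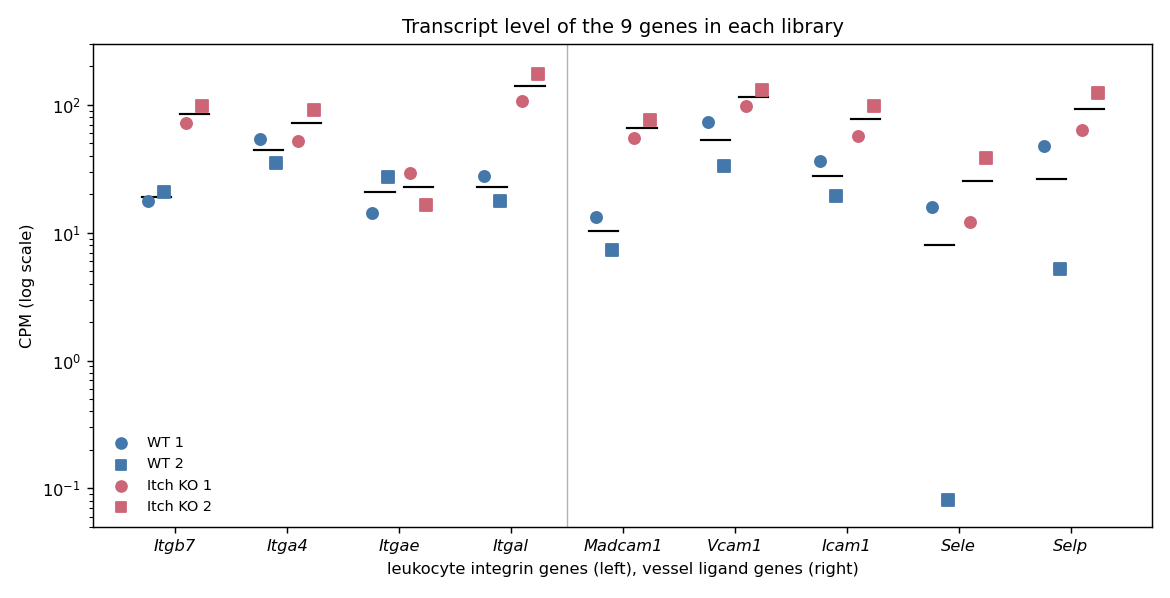
Transcript levels in CPM (log axis) of the 4 integrin genes and 5 vessel ligand genes in each library, with WT in blue, Itch KO in red, circles for replicate 1, squares for replicate 2 and a bar at each group mean. Itgb7, Itgal and Madcam1 are well apart between groups, Itgae overlaps, and Sele is near 0 in WT replicate 2 alone.

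Of the 9 genes, 3 stood far apart between the groups: the integrin chains Itgb7 and Itgal and the vessel addressin Madcam1 were 4.43, 6.18 and 6.38 times higher on average in KO mucosa. Vcam1, Icam1 and Selp were higher in both KO libraries than in both WT libraries by smaller margins, and Itga4, Itgae and Sele overlapped. The 6 separated genes compare with 30.0% of the 16956 tested genes that were separated in that direction, and no member was separated downward, where 26% of tested genes were. All 9 fitted log2 fold changes were above 0, as were 50.6% of all tested genes, and 7 exceeded 1 against 9.49% of tested genes. The median log2 fold change was 1.42 over the 4 integrins and 1.66 over the 5 vessel ligands, against 0.01 over all tested genes.

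No member was called by the main test, edgeR's quasi-likelihood test with Benjamini-Hochberg adjustment over all tested genes at 0.05. That test called 0% of genes in either direction, although 1729 genes (10.2%) were higher and 1614 (9.52%) lower at an unadjusted p below 0.05, among them 4 members, all higher. limma voom also called 0 genes. DESeq2 called 889 genes higher (5.24%) and 807 lower (4.76%), and 4 of the 9 members were among the higher ones, namely Itgb7, Itgal, Madcam1 and Icam1. With 1 library left out, DESeq2 called 3 members without WT replicate 2 (3.35% of all tested genes were called higher) and 3 without KO replicate 2 (1.03%). It called 4 members without KO replicate 1 (3.81%) and 7 without WT replicate 1 (4.67%). Itgb7, Itgal and Madcam1 were among those called in each of these 4 fits, but 1 group then had a single library, which is assumed to vary like the other group. When each library's trend on exonic length was removed, edgeR called 379 genes higher (2.24%) and 75 lower (0.442%), with the same 3 members among the higher ones.

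Itgb7, the shared beta chain of both gut-associated integrins (GRCm38 chr15:102215995-102231944, minus strand), measured 17.6 and 20.8 CPM in WT replicates 1 and 2, and 71.9 and 98.3 CPM in KO replicates 1 and 2. Both KO libraries were high, and the lower of them was 3.46 times the higher WT library. The means were 19.2 ± 2.25 and 85.1 ± 18.7 CPM (SD, n = 2 each). On the log2 scale KO exceeded WT by 2.15 (SE 0.23, 95% interval 1.51 to 2.78), with an edgeR p of 0.000552 and an adjusted p of 0.123. By p it ranked 68 of the 16956 tested genes, the first of the 9 members. DESeq2 gave an adjusted p of 1.88e-08.

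Both of its alpha partners overlapped between the groups. Itga4 (chr2:79255426-79333123, plus strand), measured 53.7 and 35.0 CPM in WT replicates 1 and 2, and 52.5 and 91.5 CPM in the KO replicates. KO replicate 1 sat within the WT range and only KO replicate 2 exceeded it. The log2 fold change was 0.70 (SE 0.37, 95% interval -0.30 to 1.70, edgeR adjusted p = 0.362). The antisense neighbour Cerkl, which overlaps Itga4, was at 1.28 to 1.79 CPM in the 4 libraries. Itgae, the epithelial-retention chain (chr11:73090583-73147446, plus strand), measured 14.2 and 27.1 CPM in WT replicates 1 and 2, and 29.2 and 16.5 CPM in the KO replicates. Each group had 1 high and 1 low library, and the ranges of the groups overlapped. Its log2 fold change was 0.14 (SE 0.50, 95% interval -1.20 to 1.49, edgeR adjusted p = 0.887), and the interval leaves room for changes of more than 2-fold in either direction. Haspin lies within Itgae on the other strand and was at 21.2 and 26.3 against 37.4 and 30.5 CPM.

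Per length, Itgb7 was 1.66 and 2.99 times as abundant as Itga4 in the WT libraries and 6.91 and 5.42 times in the KO libraries, on the scale of CPM per kb of exon. Against Itgae the same ratio was 2.05 and 1.27 in WT and 4.07 and 9.84 in KO. In both pairs the KO libraries lay above the WT libraries. The size of such ratios rests on exonic length, the union of all annotated exons. It was 2.77 kb for Itgb7 and 13.978 kb for Itga4, and in CPM Itga4 was above Itgb7 in both WT libraries. The length chosen cancels when the same ratio is compared between libraries. Of 8 pairs of genes compared in this way, 4 were higher and 1, Itgb1 over Itga4, was lower in both KO libraries, while Itgal over Itgb7, Sele over Selp and Madcam1 over Selp overlapped. For Itgb1 over Itga4 the nearest libraries were close, at 15.7 in KO replicate 1 and 16.0 in WT replicate 1. With 2 libraries in each group, an exact two-sided permutation test cannot go below p = 0.333, which the 5 separated pairs reached, so none passes before or after adjustment over the 8. With the length trend removed, the log2 difference of Itgb7 over Itga4 went from 1.46 to 0.87 and that of Madcam1 over Vcam1 from 1.52 to 1.00. The values before removal are means over libraries, and those after it are differences of fitted log2 fold changes. For Sele over Selp they were 1.75 and -0.31. This change of sign cannot be credited to the length trend. Before removal the fitted log2 fold change of Sele, 1.66, was already below that of Selp, 1.83, and the 1.75 includes 1 Sele count in WT replicate 2. Itgb1, the beta chain with which alpha 4 binds VCAM-1, measured 251 and 206 CPM in WT and 240 and 247 CPM in KO, with overlap (edgeR adjusted p = 0.773).

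**Figure D2:**
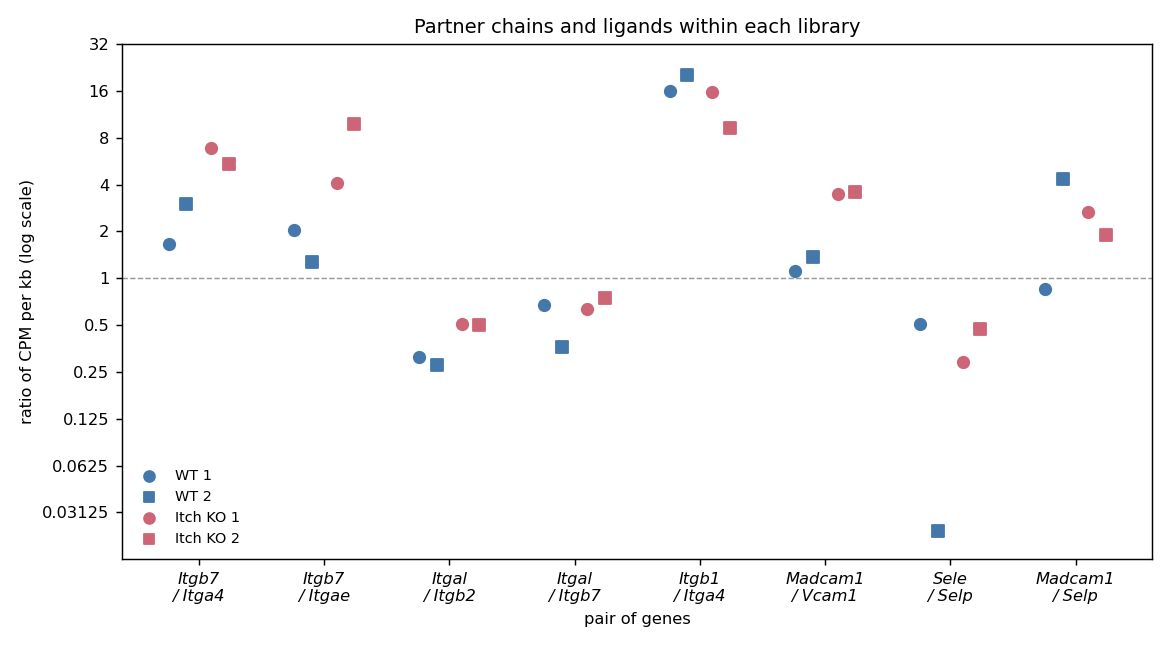
Ratio of CPM per kb of exon between 2 genes in the same library (log axis), with WT in blue, Itch KO in red, circles for replicate 1 and squares for replicate 2. Of the 8 ratios, 4 lie higher and 1 lower in both KO libraries, 3 overlap, and Itgb7 over Itgae reaches 9.84 in KO replicate 2.

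Itgal, the alpha chain of LFA-1 (chr7:127296260-127335138, plus strand), measured 28.0 and 17.7 CPM in WT replicates 1 and 2, and 107 and 174 CPM in the KO replicates. The lower KO library was 3.85 times the higher WT library. The log2 fold change was 2.63 (SE 0.36, 95% interval 1.65 to 3.61, edgeR adjusted p = 0.123, DESeq2 adjusted p = 5.67e-09). Its beta partner Itgb2 measured 41.8 and 29.7 CPM in WT and 98.7 and 161 CPM in KO, higher by 1.86 on the log2 scale (SE 0.32, edgeR adjusted p = 0.129). Per length, Itgal stood at 0.311 and 0.276 of Itgb2 in WT and at 0.506 and 0.504 in KO.

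Leukocyte RNA differed between the groups too. All 14 leukocyte markers tested were higher in both KO libraries, with summed levels of 573 and 516 CPM in WT and 1583 and 1959 CPM in KO. Ptprc, the CD45 gene carried by all leukocytes, was at 76.2 and 72.6 against 199 and 244 CPM. All 12 T cell markers and all 8 B cell markers were also higher in both KO libraries, T cells at 98.2 and 130 against 282 and 401 CPM and B cells at 42.6 and 30.1 against 638 and 663 CPM in sum. Itgb7 and Itgal were high in the same libraries as these markers, whereas Itgae was not. In whole mucosa, more cells of a type and more RNA per cell cannot be told apart.

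Set against Ptprc within each library, the 4 integrin chains divided. On the log2 scale Itgb7 relative to Ptprc was -2.10 and -1.79 in WT and -1.47 and -1.31 in KO, a mean difference of 0.56. Itgal relative to Ptprc was -1.44 and -2.03 in WT and -0.89 and -0.48 in KO, a difference of 1.05. Neither overlapped between the groups on this scale. With each library's trend on exonic length removed, an alternative chosen after seeing the data for these ratios, the Itgb7 difference turned to -0.12 and that of Itgal was 0.63, so a higher Itgb7 level per unit of CD45 transcript is not established. Itga4 relative to Ptprc went the other way, with -0.50 and -1.05 in WT and -1.92 and -1.41 in KO, a difference of -0.89. Itgae relative to Ptprc was -2.41 and -1.41 in WT and -2.76 and -3.87 in KO, a difference of -1.40. These 4 separations each gave p = 0.333 in the exact test, the smallest it allows. All 4 kept their direction against the mean of the leukocyte markers and against the T cell markers, a choice made after seeing the data, where the Itgb7 difference was 0.33 and 0.28. Against the B cell markers, also chosen after seeing the data, all 4 chains were lower in KO, by -2.21 for Itgb7, -1.73 for Itgal, -3.66 for Itga4 and -4.18 for Itgae. The direction of Itgb7 relative to other leukocyte transcripts thus depended on the denominator and on the length trend, and that of Itgal on the denominator. Itga4 and Itgae kept theirs, at -0.996 and -1.92 against Ptprc with the length trend removed.

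**Figure D3:**
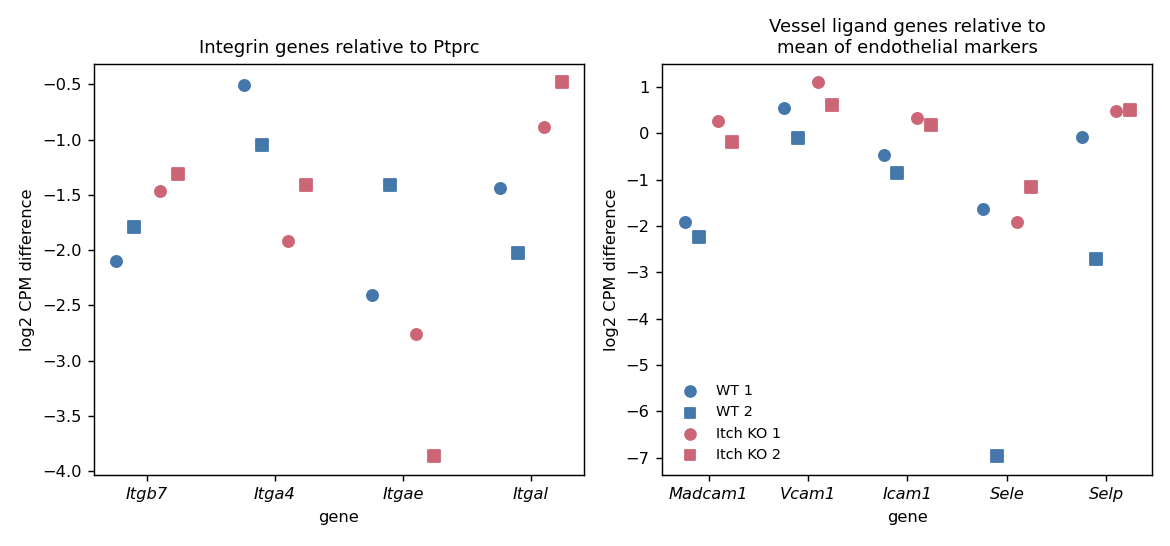
Left, log2 CPM of each integrin gene minus that of Ptprc. Right, log2 CPM of each vessel ligand gene minus the mean of the endothelial markers. WT is blue, Itch KO red, circles replicate 1 and squares replicate 2. Itgb7 and Itgal lie higher and Itga4 and Itgae lower in both KO libraries, and Madcam1 shows the clearest separation on the right.

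Madcam1, the mucosal addressin (chr10:79664559-79668537, plus strand), measured 13.2 and 7.33 CPM in WT replicates 1 and 2, and 55.3 and 75.9 CPM in the KO replicates. Both KO libraries were high and the lower was 4.18 times the higher WT library. The means were 10.3 ± 4.17 and 65.6 ± 14.6 CPM (SD, n = 2 each), with a log2 fold change of 2.68 (SE 0.39, 95% interval 1.62 to 3.73). The edgeR p was 0.00181, with an adjusted p of 0.123, and DESeq2 gave an adjusted p of 5.15e-07. Per length, Madcam1 was 1.11 and 1.37 times as abundant as Vcam1 in WT and 3.49 and 3.57 times in KO.

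Icam1, the LFA-1 ligand (chr9:21015985-21028817, plus strand), measured 36.2 and 19.6 CPM in WT replicates 1 and 2, and 57.6 and 98.0 CPM in the KO replicates. The groups did not overlap, with a log2 fold change of 1.48 (SE 0.43, 95% interval 0.33 to 2.64, edgeR adjusted p = 0.194). DESeq2 gave an adjusted p of 0.0229, which became 0.314 without WT replicate 2 and 0.613 without KO replicate 2. Vcam1, which binds alpha 4 integrins (chr3:116109949-116129688, minus strand), measured 73.5 and 33.1 CPM in WT replicates 1 and 2, and 97.9 and 131 CPM in the KO replicates. Its KO libraries were both above WT, but the lower exceeded the higher WT library only 1.33-fold. The log2 fold change was 1.11 (SE 0.43, 95% interval -0.06 to 2.27, edgeR adjusted p = 0.268).

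The 2 selectins depended on WT replicate 2. Sele, a selectin made by cytokine-activated endothelium (chr1:164048234-164057677, plus strand), had 150 counts in WT replicate 1, 1 count in WT replicate 2, and 98 and 371 counts in the KO libraries. These correspond to 16, 0.0815, 12 and 38.3 CPM, and the exact Poisson 95% interval of the single count runs from 0.00206 to 0.454 CPM. WT replicate 1 lay between the KO libraries. The log2 fold change of 1.66 (SE 1.85, 95% interval -3.34 to 6.66, edgeR adjusted p = 0.639) became 0.66 without WT replicate 2 and 8.09 without WT replicate 1.

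Selp, a selectin stored in endothelium and platelets (chr1:164115264-164150026, plus strand), measured 47.7 and 5.22 CPM in WT replicates 1 and 2, and 63.4 and 123 CPM in the KO replicates. WT replicate 1 was 9.14 times WT replicate 2, where 1.4% of tested genes had a ratio of at least 9. The groups did not overlap, but the margin between the nearest libraries was 1.33-fold, and the log2 fold change of 1.83 (SE 1.07, edgeR adjusted p = 0.399) became 0.97 without WT replicate 2 and 4.18 without WT replicate 1. Of the platelet markers, Pf4 was at 14.1 and 8.72 against 21.3 and 28.5 CPM, whereas Ppbp was at 70.4 CPM in WT replicate 1 and at 1.14, 0.614 and 4.13 CPM in WT replicate 2 and KO replicates 1 and 2. The part of platelet RNA in the Selp values was not tested.

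**Figure D4:**
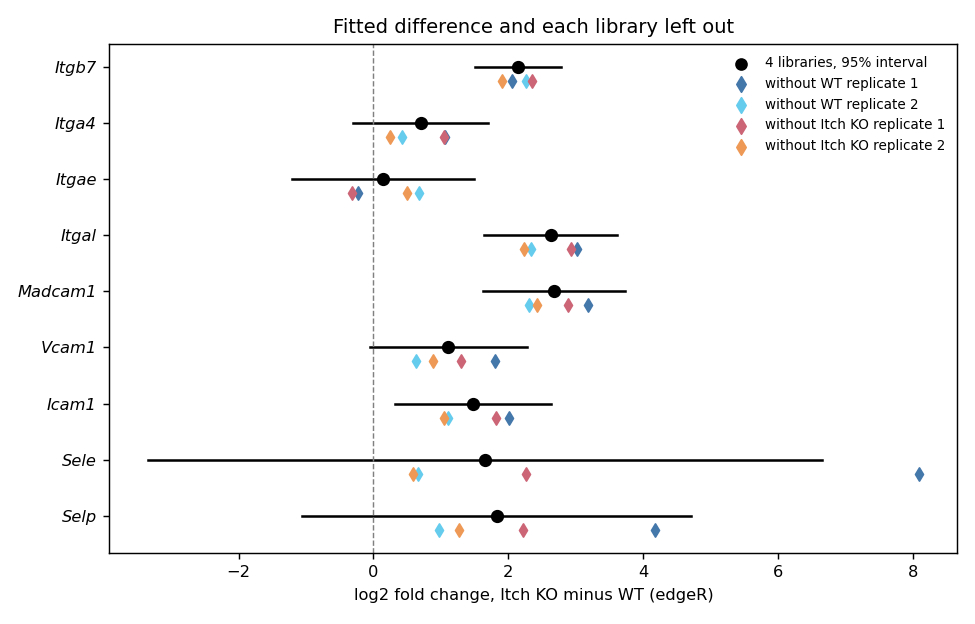
Fitted log2 fold change of each gene, Itch KO minus WT, with its 95% interval (black) and the value after leaving out each library (diamonds). Itgb7, Itgal and Madcam1 stay between 1.90 and 3.18, while Sele runs from 0.59 to 8.09 and Itgae crosses 0.

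All 5 vessel ligands were higher in WT replicate 1 than in WT replicate 2, by 1.8 to 196 times, and all 5 were higher in KO replicate 2 than in KO replicate 1. The 16 endothelial markers showed the same order in both groups, all 16 of them each time, with WT ratios of 1.03 to 1.84. Their summed level was 954 and 674 CPM in WT and 928 and 1629 CPM in KO. In 5 of the 9 members the order ran from WT replicate 2 through WT replicate 1 and KO replicate 1 to KO replicate 2, as it did in 7.68% of tested genes. WT replicate 1 was at least 1.5 times WT replicate 2 in 7 of the 9 members and in 12.7% of tested genes, and KO replicate 2 at least 1.3 times KO replicate 1 in 8 members and in 27.9% of tested genes. The part of vessel content in the ligand values was not tested. Nor was the part of the squamous and small intestine RNA in the values of any member, Itgae among them.

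Relative to the mean of the endothelial markers, Madcam1 on the log2 scale was -1.91 and -2.24 in WT and 0.28 and -0.18 in KO, a difference of 2.12. Icam1 was -0.47 and -0.85 against 0.34 and 0.19, a difference of 0.92, and Vcam1 was 0.55 and -0.09 against 1.10 and 0.61, a difference of 0.63. These 3 ligands were higher in both KO libraries also relative to endothelial transcripts. For Vcam1 the nearest libraries were close, at 0.61 in KO replicate 2 and 0.55 in WT replicate 1. In whole mucosa the cells that made a ligand transcript are not known, so the ratio is not a level per vessel. Selp was -0.07 and -2.71 against 0.47 and 0.52, and Sele, at -1.64 and -6.97 against -1.90 and -1.16, overlapped. The exact test gave p = 0.333 for each but Sele, for which it gave 0.667. With Pecam1 or Cdh5 in place of the list the 5 differences kept their sign.

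Ranked by mean level per length, Madcam1 came first and Itgb7 second in both groups, and the order of the means below them differed. The order within a group rests on the exonic lengths used. In CPM, Itgal had the highest KO mean of the members, at 141, and Madcam1 was at 65.6. In WT mucosa Madcam1 was at 7.16 ± 2.90 CPM per kb and Itgb7 at 6.93 ± 0.811, followed by Icam1, Vcam1, Selp, Itgae, Itgal, Itga4 and last Sele at 2.76 ± 3.87 (SD, n = 2 each), and every pair of neighbours in that order overlapped. In KO mucosa Madcam1 was first at 45.7 ± 10.2 CPM per kb and Itgb7 second at 30.7 ± 6.75, and the libraries of these 2 genes did not overlap. Itgal followed at 21.5 ± 7.19, then Selp, Icam1, Vcam1 and Sele, with Itga4 at 5.15 ± 1.97 and Itgae at 4.995 ± 1.96 last. Neighbours from Itgb7 downward overlapped.

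Other adhesion genes were read from lists of the same pathway, and in each of them edgeR called no gene. Of 12 other integrin chains, 4 were higher at an unadjusted p below 0.05, 4 were called higher by DESeq2, and the median log2 fold change was 0.26. The 4 were Itgb2, Itgam, Itgax and Itga2b, the last also a platelet gene, of which Itgam, the alpha chain of the Mac-1 integrin of myeloid cells, was at 38.1 and 37.1 against 87.4 and 209 CPM, and Itgax, known from dendritic cells and macrophages, at 30.8 and 30.8 against 57.6 and 87.5 CPM. Itga6, a chain of epithelial laminin receptors, overlapped at 369 and 264 against 294 and 215 CPM.

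Among 13 tested genes of integrin activation, DESeq2 called 5 higher, and the median difference was 1.07 on the log2 scale. Fermt3, which encodes the leukocyte kindlin that switches integrins on, was at 26.8 and 27.0 against 74.8 and 106 CPM. Rasgrp1 was at 12.6 and 12.1 against 38.5 and 65.0 CPM, and Rassf5, a Rap1 effector, at 28.4 and 20.5 against 67.6 and 97.7 CPM. Tln1, the talin gene expressed in most cell types, overlapped at 323 and 256 against 282 and 299 CPM.

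On the leukocyte side of selectin binding, 3 of 13 tested genes were called higher by DESeq2 and none lower, with a median log2 fold change of 0.23. Selplg, which encodes the P-selectin ligand PSGL-1, was at 27.6 and 27.6 against 84.2 and 130 CPM, and Spn, the sialophorin gene, at 11.1 and 14.3 against 44.7 and 73.8 CPM. Glg1, a proposed E-selectin ligand of the Golgi, was lower at 282 and 266 against 216 and 210 CPM without a call. Of the 11 tested genes of high endothelial venules, DESeq2 called none and none had an unadjusted edgeR p below 0.05. Of them 4 were separated upward and 1 downward, and the median was 0.21. The 1 downward was Gcnt1, at 183 and 115.5 against 114.6 and 86.9 CPM. Glycam1, a mucin-like glycoprotein gene of these venules, was at 3.63 and 0.244 against 16.5 and 18.7 CPM, and its value in WT replicate 2 rests on 3 counts.

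Of the 16 tested junctional and other vessel adhesion genes, 2 were higher and 2 lower at an unadjusted p below 0.05, and DESeq2 called 1, Icam2. Icam2, a second LFA-1 ligand of resting endothelium and leukocytes, was at 11.9 and 10.6 against 26.2 and 44.8 CPM. Cd47 was at 105 and 81.3 against 136 and 153 CPM and Alcam at 140 and 99.7 against 79.0 and 74.2 CPM. Of 7 other ligands of the member integrins, DESeq2 called 2 higher, Icam2 and Spp1. Separated upward were 3, against 30.0% of all tested genes, and the median log2 fold change was 0.43. Spp1, the osteopontin gene, whose product binds alpha 4 integrins, measured 2.88 and 0.815 CPM in WT and 23.1 and 73.7 CPM in KO. Cdh1, which encodes the E-cadherin bound by the alpha E chain, overlapped at 376 and 296 against 387 and 285 CPM.

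Cytokines and receptors that induce vessel ligands were measured alongside. Over 14 tested genes the median log2 fold change was 2.85, 12 were separated upward and 10 were called higher by DESeq2. Tnf was at 12.9 and 6.36 against 58.5 and 89.9 CPM, Lta, the lymphotoxin alpha gene, at 1.49 and 1.71 against 11.9 and 17.4 CPM, and the receptor gene Tnfrsf1b at 124 and 94.1 against 252 and 248 CPM. Of 9 NF-kB response genes 4 were called higher by DESeq2, with a median of 0.63. Nfkb2 was at 97.8 and 111 against 154 and 169 CPM, whereas Cx3cl1, a membrane-bound chemokine of epithelium and vessels, was at 178 and 154 against 153 and 116 CPM.

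Of 11 genes of vitamin A metabolism and gut imprinting, through which lymphocytes gain gut-homing receptors, 1 was called by DESeq2, Tgfb1, at 49.3 and 30.4 against 74.1 and 109 CPM. The median was 0.04. Gpr15, a colon-homing receptor, was at 0.960 and 1.22 against 3.32 and 6.09 CPM. Markers of intraepithelial lymphocytes, cells that often carry the alpha E chain, were separated upward in 5 of 7 tested genes, with a median log2 fold change of 0.82. DESeq2 called 3 of them higher, Cd244a, Gzma and Gzmb, while Cd160 and Kit overlapped. Their summed level was 141 and 271 CPM in WT and 226 and 354 CPM in KO. Lymphoid tissue stroma and follicle markers, which accompany Madcam1 in Peyer's patches and follicles, were separated upward in 9 of 10 tested genes, with summed levels of 311 and 232 CPM in WT and 674 and 770 CPM in KO. The part of lymphoid follicles in the Madcam1 and Itgb7 values was not tested.

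Genes whose profile over the 4 libraries was closest to Itgb7 and Madcam1 were sought among 13364 genes whose mean reached 5 CPM. Closeness was the root mean square difference of log2 CPM after centring each gene on its own mean. Nearest to Itgb7 were BC035044 (0.02), Il27ra, the receptor chain of interleukin-27 (0.06), and AI662270 (0.08). Nearest to Madcam1 were Pou2f2, a transcription factor gene of B cells (0.03), Gpr183, an oxysterol receptor gene of lymphocytes (0.10), and Serpina3g (0.11). With 4 libraries such closeness is a description of these samples only.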

How the data were processed

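RNA of colonic mucosa from 2 WT and 2 Itch KO samples was sequenced, and samples were grouped by title. Each library has its own table of gene counts, which the authors deposited without normalization. According to the submitters' processing notes, the tools were TopHat2, HTSeq 0.6.1, SAMtools 0.1.19 and CASAVA 1.8.2, and the build was GRCm38 (mm10). The sources used here give neither strand setting nor duplicate handling, so a gene and an antisense gene over it may share reads. The largest count of any gene was 9389, and no library had over 0.633% of its counts in its 10 highest genes, so that the levels of densely covered genes may be compressed. The members lay between the 25.9 and 80.5 percentiles of counts per kb. WT replicate 1 lists 19308 genes and the other files 39179. Tests used the 19308 shared genes. Reads outside genes were 18.2% to 23.0% and ambiguous reads 2.67% to 3.03% of the other 3 files and were left out.

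The main test was edgeR 4.0.16 (R 4.3.3) with TMM factors, filterByExpr at a minimum count of 10, robust quasi-likelihood, group as the only term and two-sided Benjamini-Hochberg adjustment, which kept 16956 genes with 2 residual degrees of freedom. Scripts were tested on simulated data. Ratios used log2 CPM with a prior count of 2. Exonic length is the union of exons in GENCODE M21 (GRCm38), matched for 19084 identifiers, and 4 symbols were matched through newer names. Alternatives were RLE and upper quartile factors, other filters, DESeq2 1.42.0, voom (limma 3.58.1), edgeR's legacy=FALSE estimator, a replicate block, removal of each library's trend on exonic length, and each library left out. DESeq2 with each library left out, T cell and B cell markers as denominators, and relative levels with the length trend removed were added after seeing the data. Relative levels with the trend removed were differences of fitted log2 fold changes. Intervals cover 95%, and counting intervals cover counting error only.

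The members and lists were chosen with earlier results of these data known. From each list of pathway genes the 3 with the smallest edgeR p and the gene with the highest mean were eligible to be named. Other genes named, among them Itgb1, Itga2b, Pf4, Ppbp, Cd160, Kit, Cd244a, Gzma, Gzmb, Ptprc, Pecam1, Cdh5, Cerkl and Haspin, were chosen after their values were seen. Values of 1 listed gene are not reported here.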

Additional observations from a re-analysis of the deposited data

How the results depend on the processing

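Over 13 alternatives for each of the 9 genes, 108 of 117 values kept their direction and their side of the threshold in the test, 7 passed the threshold that the main value missed, and 2 changed sign. Both sign changes were in Itgae, at -0.23 without WT replicate 1 and -0.32 without Itch KO replicate 1, while it was 0.68 without WT replicate 2, and the cause was not tested. With B cell markers in place of Ptprc, Itgb7 turned from 0.56 to -2.21 and Itgal from 1.05 to -1.73. Relative to Ptprc with the length trend removed, Itgb7 turned to -0.12. The count of all genes called went from 0 to 1696 with DESeq2 and to 454 with the length trend removed, and the count of members called from 0 to 4 and to 3, the cause of which was not tested. It was 0 for all genes and for the members in every edgeR fit without 1 library. Without 1 library, the median log2 fold change of the 4 integrins ranged from 1.2 to 1.70 and that of the 5 vessel ligands from 0.97 (without WT replicate 2) to 3.18 (without WT replicate 1). DESeq2 called 3 to 7 members without 1 library, while 1.03% to 4.67% of all tested genes were called higher. The highest count came without WT replicate 1, where Vcam1, Sele and Selp were added. Log2 fold changes ranged over these 13 alternatives from 1.90 to 2.36 for Itgb7, 2.24 to 3.01 for Itgal, 2.31 to 3.18 for Madcam1, 1.05 to 2.01 for Icam1, 0.64 to 1.81 for Vcam1 and 0.24 to 1.13 for Itga4. Their adjusted p-values ranged from 0.0229 to 0.442 for Icam1 and from 0.112 to 0.512 for Vcam1. The added DESeq2 fits without 1 library gave 0.00215 to 0.613 for Icam1 and 0.000487 to 0.739 for Vcam1.

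The labels do not say that equal replicate numbers share an animal or batch, and the within-group deviations of equal numbers had a correlation of 0.05. A fit with the replicate block left 1 residual degree of freedom and called 0 genes and 0 members, as without it. Its medians were 1.41 for the integrins and 2.41 for the vessel ligands.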
